A study of Homo sapiens with 10 samples.

Results

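The genes described here are the core regulators of apoptosis together with the tumour necrosis factor (TNF) receptor superfamily, its ligands and its adaptors. They were chosen by gene symbol, with a fixed list of names and name patterns that used no measured value, and 66 of the 13527 features in the deposited table were found. The names cover caspases, the BCL2 family, inhibitor of apoptosis (IAP) proteins, TNF receptors and ligands, death-receptor adaptors, RIP kinases and TRAF adaptors. A further 25 names of these families, among them BCL2, RIPK3 and CASP5, are not analysed here.

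The cells were DU145, an established prostate cancer line from a brain metastasis that does not depend on androgen, profiled by RNA-seq. The shSOX4 libraries (3) came from DU145 cells with a short hairpin RNA against SOX4, labelled as a SOX4 knockdown. The shCon libraries (3) came from DU145 cells with a scrambled control hairpin. Neither group received any other treatment. The sources used here do not give the hairpin sequences, their number, or whether each line is a clone or a pool. SOX4 is an HMG-box transcription factor related to SRY, and the series asks whether lowering it holds back neuroendocrine differentiation of prostate cancer cells.

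Apoptosis is run by caspases, proteases that are stored as inactive precursors. In the death-receptor pathway, ligands such as TRAIL and FAS ligand bind receptors whose death domains recruit FADD and caspase-8, while the mitochondrial pathway opens the outer membrane through BAX and BAK1 and activates caspase-9 on APAF1. BCL2-type proteins hold BAX and BAK1 in check, BH3-only proteins release them, and IAP proteins restrain caspases and carry ubiquitin signals from TNF receptors to NF-kB. DU145 is known to lack BAX protein although the gene is transcribed.

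The libraries held 31189910 to 34784541 counts in shSOX4 and 36360205 to 43361609 in shCon. SOX4 itself had 4.55, 6.44 and 6.01 CPM (counts scaled to library size) in shSOX4 libraries 1, 2 and 3, against 12.9, 10.1 and 8.48 CPM in shCon libraries 1, 2 and 3. It fell by 0.89 log2 units (adjusted p = 0.0111, edgeR), and without shCon 1 it fell by 0.71 with an adjusted p of 0.0598. Along the second principal component, with 17.9% of the variance, shSOX4 1 (score -25.4) and shCon 3 (-21.4) lay away from the other 4 libraries (4.15 to 18.6). The epithelial markers fixed for the cell line had rows for 7 of 8 genes, with summed levels of 8893 to 10121 CPM in shSOX4 and 4480 to 7185 CPM in shCon. That sum is mostly keratins, of which KRT8 and KRT18 rose by 1.33 and 1.03 log2 units, while 2 of the other 5 genes of the list fell. Levels below are CPM after TMM scaling, given for libraries 1, 2 and 3 of a group in that order, and FPKM, which divides by gene length, is used to compare one gene with another. In bulk RNA, fewer cells that express a gene and less RNA per cell cannot be told apart.

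Of the 66 genes, 23 changed at an adjusted p under 0.05 (edgeR), which is 34.8% against 32.8% of all features. Of these, 8 rose in shSOX4 (12.1%, against 17.0% of all features) and 15 fell (22.7%, against 15.8%). The median log2 fold change was -0.15 for the 66 genes and -0.01 for all features. The groups did not overlap for 31 of the 66 genes, against 47.0% of all features. Of the 66, 9 were higher in shSOX4 without overlap (13.6%, against 23.1% of all features) and 22 were lower (33.3%, against 23.9%). Of the 66 genes, 5 passed the test with a log2 fold change of 1 or more, as did 7.97% of all features. Another 2 of the 66 passed with one of -1 or less, as did 5.27% of all features. The total share of calls therefore lay near the background, with a smaller share of rises and a larger share of falls than among all features, a difference that was not tested, and the description below concerns single genes.

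The calls by family were as follows, and are read beside the 17.0% of all features that rose and the 15.8% that fell. No family was tested against these shares, and with 6 to 17 genes each the counts are descriptions. Of the 14 TNF receptors, 0 rose and 6 fell (42.9%), with a median log2 fold change of -0.30. Of the 17 rows of the BCL2 family, 0 rose and 4 fell (23.5%), with a median of -0.43. Of the 10 caspases, 3 rose and 0 fell, with a median of 0.21. Of the 6 genes of the apoptosome and IAP group, 3 rose and 0 fell, with a median of 0.70. The counts of falls depend on single libraries. Without shSOX4 2, 4 receptors and 1 BCL2-family gene fell, and without both shSOX4 1 and shCon 3 the counts were 6 and 7.

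**Figure D1:**
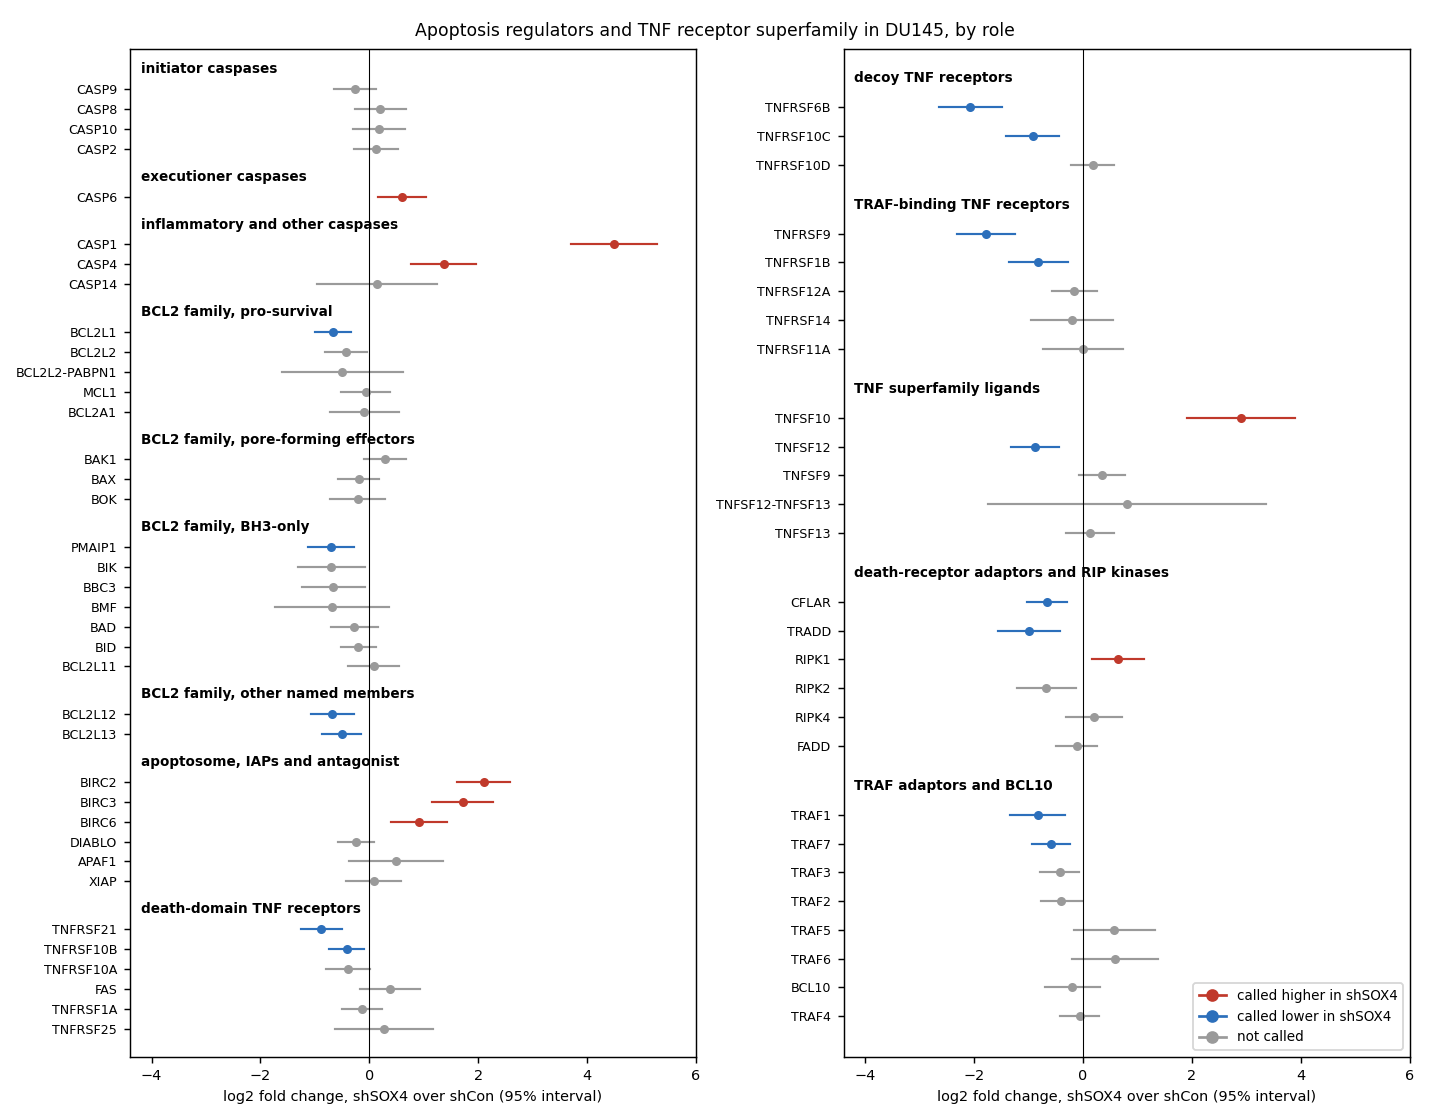
Log2 fold change of shSOX4 over shCon (horizontal axis) for 64 of the 66 genes, ordered by role, with points for the edgeR estimate and bars for its 95% confidence interval. Red points mark the 8 genes that rose, blue points the 15 that fell and grey points the 41 that did not pass an adjusted p of 0.05.

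The ligand TNFSF10 (ENSG00000121858), which encodes TRAIL and binds the death receptors TNFRSF10A and TNFRSF10B, was the ligand with the largest fold change. It had 1.76, 1.64 and 1.04 CPM in shSOX4, against 0.241, 0.107 and 0.233 CPM in shCon. These levels rest on 60, 53 and 35 counts in shSOX4 and on 11, 4 and 8 counts in shCon. Every shSOX4 library lay above every shCon library, and TNFSF10 was scarce in both groups. Its log2 fold change was 2.90 (95% interval 1.91 to 3.9, SE 0.466, edgeR adjusted p = 0.000435). It was under 1 CPM in every shCon library, so it stayed in the table through its level in shSOX4 and could not have been listed had it been that low in both groups.

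Among the other ligands, TNFSF12, which encodes TWEAK, went the other way. It had 23.9, 21.1 and 18.0 CPM in shSOX4, against 34.3, 32.9 and 49.1 CPM in shCon, without overlap. It fell by 0.88 log2 units (edgeR adjusted p = 0.0056, SE 0.206) and overlaps the readthrough gene TNFSF12-TNFSF13, so its reads may be shared. TNFSF9, the ligand of the co-stimulatory receptor TNFRSF9, was the most abundant of the genes with a TNFSF symbol by length. It had 36.0 FPKM in shSOX4 and 28.0 FPKM in shCon. Its log2 fold change of 0.35 did not pass the test (adjusted p = 0.186, edgeR). CD70, a ligand without such a symbol, stood higher, with 148 FPKM in shSOX4 and 123 FPKM in shCon, and did not pass (adjusted p = 0.329, edgeR). TNFSF13, which encodes APRIL, and the readthrough gene also did not pass.

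TNFRSF9 (ENSG00000049249), also known as 4-1BB, binds TRAF adaptors and co-stimulates T cells. It had 4.84, 3.03 and 3.87 CPM in shSOX4, against 15.9, 14.3 and 10.3 CPM in shCon. The highest shSOX4 library lay well below the lowest shCon library. TNFRSF9 stood at 29.0% of the shCon level in shSOX4, and the log2 fold change was -1.79 (95% interval -2.32 to -1.25, SE 0.249, edgeR adjusted p = 0.000146). Leaving out any one library gave log2 fold changes of -1.96 to -1.63, all of which passed.

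TNFRSF6B (ENSG00000243509) encodes decoy receptor DcR3, a soluble protein that captures FAS ligand and other TNF ligands. It had 18.2, 9.66 and 9.5 CPM in shSOX4, against 47.1, 42.7 and 67.6 CPM in shCon. The groups were far apart, and shSOX4 1 was the highest of its group while shCon 3 was the highest of the controls. Its log2 fold change was -2.07 (95% interval -2.65 to -1.5, SE 0.269, edgeR adjusted p = 7.85e-05), which leaves 23.8% of the shCon level. TNFRSF6B overlaps ARFRP1 and the readthrough gene RTEL1-TNFRSF6B, and the sources used here do not say how reads were divided between them.

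TNFRSF21, the death-domain receptor DR6, had 27.1, 24.1 and 24.2 CPM in shSOX4, against 50.4, 43.4 and 44.8 CPM in shCon. All 3 shSOX4 libraries lay close together and below the controls. It fell by 0.88 log2 units (95% interval -1.25 to -0.51, SE 0.174, edgeR adjusted p = 0.00198), to 54.3% of the shCon level, and passed whichever library was left out. TNFRSF1B, the second TNF receptor (TNFR2), had 9.30, 6.75 and 4.67 CPM in shSOX4 and 11.3, 11.4 and 14.0 CPM in shCon. It fell by 0.82 log2 units (adjusted p = 0.0226, edgeR), and the call was lost without shSOX4 2, shSOX4 3 or shCon 3, with an adjusted p of up to 0.103.

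Of the 4 surface receptors for TRAIL, 2 fell and 2 did not pass the test. TNFRSF10A and TNFRSF10B carry a death domain, whereas the decoys TNFRSF10C and TNFRSF10D lack a working one. TNFRSF10C had 6.83, 5.42 and 4.73 CPM in shSOX4 and 9.38, 10.5 and 12.4 CPM in shCon, and it fell by 0.92 log2 units (edgeR adjusted p = 0.0072, SE 0.226). TNFRSF10B had 107, 121 and 123 CPM in shSOX4 and 163, 155 and 149 CPM in shCon, and it fell by 0.41 log2 units (edgeR adjusted p = 0.0481, SE 0.151). Neither gene overlapped between the groups, but the TNFRSF10B call held without shCon 3 and was lost without any one of the other 5 libraries, with an adjusted p of up to 0.152. TNFRSF10A had a log2 fold change of -0.40 (95% interval -0.79 to 0.00, adjusted p = 0.116, edgeR). TNFRSF10D had one of 0.17 (95% interval -0.23 to 0.58, adjusted p = 0.499, edgeR). The 4 genes are close copies of each other, so shared reads may have been split between them.

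By FPKM, the summed decoys TNFRSF10C and TNFRSF10D stood at 0.979, 0.942 and 1.18 times the summed death receptors TNFRSF10A and TNFRSF10B in shSOX4, against 0.778, 0.822 and 0.712 times in shCon. Most of the decoy sum was TNFRSF10D, with 38.2 FPKM in shSOX4 and 33.9 FPKM in shCon, which did not pass the test. The other decoy, TNFRSF10C, fell, with 3.08 FPKM in shSOX4 and 5.79 FPKM in shCon. The ratio was higher in each shSOX4 library than in any shCon library. This ratio and those given further on were chosen after the values were seen, and with 3 libraries a group the smallest two-sided exact permutation p is 0.1, so they are descriptions.

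The other receptors did not pass the test. FAS, the receptor of FAS ligand, had 4.66, 4.95 and 6.07 CPM in shSOX4 and 4.64, 4.41 and 3.03 CPM in shCon, with a log2 fold change of 0.37 (95% interval -0.18 to 0.93, adjusted p = 0.28, edgeR). The groups did not overlap, although shSOX4 1 and shCon 1 were nearly level, and FAS overlaps ACTA2 and an antisense gene. TNFRSF1A, the main death-domain receptor of TNF, had a log2 fold change of -0.14 (95% interval -0.51 to 0.22, adjusted p = 0.545, edgeR). TNFRSF12A, the receptor of TWEAK, had the highest level by length among the TNFRSF genes and FAS, with 342 ± 45.2 FPKM in shSOX4 and 377 ± 66.9 FPKM in shCon (SD, n = 3 each), and its log2 fold change of -0.16 had an adjusted p of 0.549 (edgeR).

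Among the TNFRSF genes and FAS, the order by FPKM in shSOX4 went on after TNFRSF12A with TNFRSF1A (80.2), TNFRSF10D (38.2), TNFRSF10B (30.7) and TNFRSF6B (10.2). In shCon it went on with TNFRSF1A (87.2), TNFRSF6B (42.4), TNFRSF10B (39.3) and TNFRSF10D (33.9). The neighbours TNFRSF6B, TNFRSF10B and TNFRSF10D lay within their spread of each other in shCon, and TNFRSF6B stood below both others in shSOX4. TNFRSF14, TNFRSF25 and TNFRSF11A were low by length in both groups and did not pass.

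**Figure D2:**
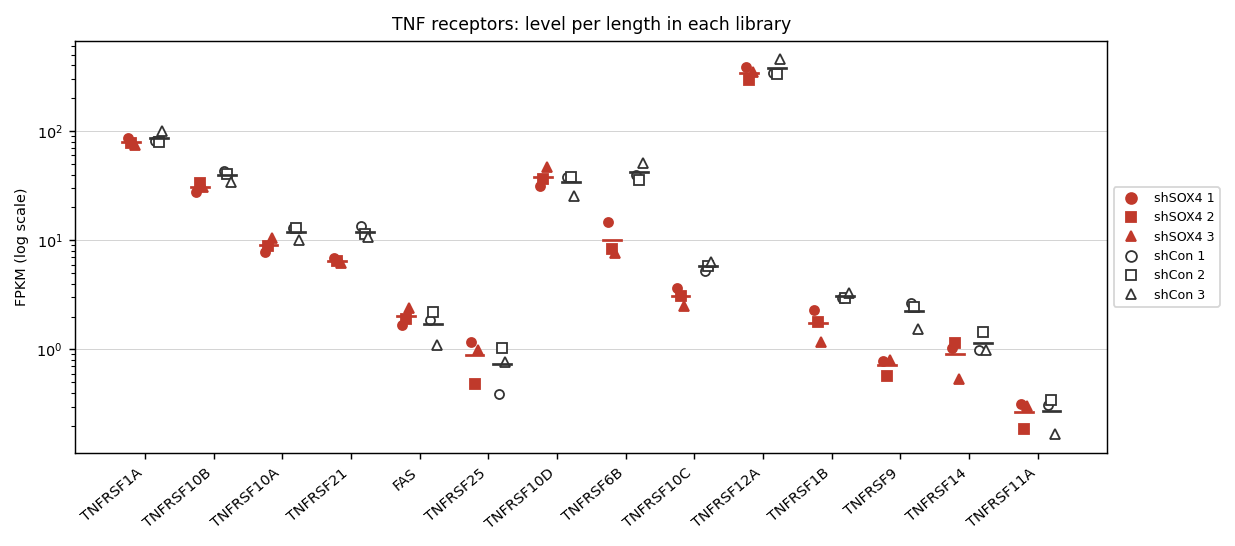
FPKM (log scale) of the 14 TNF receptor genes in each of the 6 libraries, with shSOX4 as filled red symbols to the left and shCon as open black symbols to the right, and bars for the group means. TNFRSF12A stands highest in both groups, and the shSOX4 symbols of TNFRSF21, TNFRSF6B, TNFRSF10C, TNFRSF1B and TNFRSF9 lie below those of shCon.

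Promoter sequence is shown for TNFSF10, TNFRSF9 and TNFRSF21, as examples of a ligand that rose and receptors that fell, each with a different motif. The windows are the 250 bases before the gene start, 5′ to 3′ on the gene's strand, from RefSeq on GRCh38.p14, a newer build than that of the deposited table. Capitals mark motif matches on either strand. The motifs searched were the SOX cores ACAAAG and ACAATG, the AP-1 motif TGANTCA, the interferon-response motif GAAANNGAAA and the NF-kB motif.
TNFSF10 (chr3:172523431-172523680, minus strand): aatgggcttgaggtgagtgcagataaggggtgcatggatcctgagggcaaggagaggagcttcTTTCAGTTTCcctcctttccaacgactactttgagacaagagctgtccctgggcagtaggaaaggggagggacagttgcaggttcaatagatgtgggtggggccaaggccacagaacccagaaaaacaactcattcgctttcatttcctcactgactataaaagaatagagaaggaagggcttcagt
TNFRSF9 (chr1:7940840-7941089, minus strand): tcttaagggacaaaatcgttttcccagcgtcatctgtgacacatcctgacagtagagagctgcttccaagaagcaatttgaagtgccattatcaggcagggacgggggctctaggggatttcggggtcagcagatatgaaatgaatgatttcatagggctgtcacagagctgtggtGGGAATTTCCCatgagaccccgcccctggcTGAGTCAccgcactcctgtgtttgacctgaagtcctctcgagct
TNFRSF21 (chr6:47309906-47310155, minus strand): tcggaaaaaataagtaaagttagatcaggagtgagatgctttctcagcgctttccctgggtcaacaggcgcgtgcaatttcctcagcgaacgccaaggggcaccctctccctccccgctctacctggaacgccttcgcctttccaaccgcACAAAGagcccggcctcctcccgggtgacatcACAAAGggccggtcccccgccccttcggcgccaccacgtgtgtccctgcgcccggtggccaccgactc
In TNFSF10 the capitals are the interferon-response letters on the opposite strand. In TNFRSF9 they are an NF-kB match, read on both strands with overlap, followed by an AP-1 match. In TNFRSF21 they are 2 copies of the SOX core ACAAAG. A match describes letters and is not a bound site.

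Of the 66 genes, 48 had a RefSeq promoter window, 7 of them among those that rose and 11 among those that fell. ACAAAG was found in 6 of the 48 windows (12.5%), against 8.33% of the windows of all table features and 13.7% of all RefSeq windows. It was found in 0 of the 7 windows of genes that rose and in 3 of the 11 of genes that fell, those of TNFRSF21, BCL2L1 and TRAF7. The other matches were in 3 of the 30 windows of genes that did not pass (10.0%), those of CASP8, TNFRSF1A and XIAP. ACAATG was found in 1 window (2.08%, against 4.55% of table features and 9.45% of all RefSeq windows). The NF-kB motif was found in 8 windows (16.7%, against 12.0% and 9.57%), among them BIRC3 and BIRC6, which rose, and TNFRSF9 and CFLAR, which fell. TGANTCA was found in 4 windows (8.33%, against 3.60% and 6.60%) and GAAANNGAAA in 4 (8.33%, against 2.18% and 3.07%). The windows with GAAANNGAAA were those of TNFSF10, which rose, TNFRSF1B, which fell, and BCL2A1 and TNFSF9, which did not pass. The window of TNFRSF6B, the receptor with the largest fall, matched none of the motifs searched. With so few windows these shares are descriptions.

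Of the adaptors that pass the signal on from receptors, 2 death-receptor adaptors fell and 1 RIP kinase rose. TRADD, the adaptor of TNFRSF1A, had 26.9, 15.2 and 14.6 CPM in shSOX4, against 31.1, 30.2 and 51.3 CPM in shCon. It fell by 0.99 log2 units (edgeR adjusted p = 0.0123, SE 0.267), with shSOX4 1 close to the controls, and the call was lost without shSOX4 2 or shSOX4 3. CFLAR, which encodes the caspase-8 regulator c-FLIP, had 73.7, 72.4 and 84.5 CPM in shSOX4, against 140, 127 and 98.3 CPM in shCon. It fell by 0.66 log2 units (edgeR adjusted p = 0.0106, SE 0.174), and without shSOX4 2 the adjusted p was 0.0636.

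RIPK1, the kinase that joins TNF receptor signalling to survival or death, had 14.5, 20.6 and 23.4 CPM in shSOX4, against 13.7, 13.8 and 9.97 CPM in shCon. It rose by 0.64 log2 units (edgeR adjusted p = 0.0411, SE 0.224). Its shSOX4 1 value lay just above the controls, and the call held without shSOX4 1 and was lost without any one of the other 5 libraries, with an adjusted p of up to 0.17. FADD, the adaptor that brings caspase-8 to death receptors, was the most abundant of these by length, at 54.4 FPKM in shSOX4 and 58.5 FPKM in shCon. Its log2 fold change was -0.12 (95% interval -0.50 to 0.26, adjusted p = 0.638, edgeR). RIPK2 (-0.68, adjusted p = 0.0522, edgeR) and RIPK4 (0.20, adjusted p = 0.536, edgeR) did not pass.

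Of the 7 TRAF adaptors and BCL10, 0 rose and 2 fell. TRAF1, an adaptor that joins BIRC2 and BIRC3 to receptor complexes, had 7.83, 6.84 and 5.06 CPM in shSOX4 and 10.9, 10.1 and 14.2 CPM in shCon. It fell by 0.84 log2 units (edgeR adjusted p = 0.0142, SE 0.233), and without shSOX4 3 the adjusted p was 0.0719. TRAF7, a ubiquitin ligase, had 224, 191 and 182 CPM in shSOX4 and 283, 265 and 346 CPM in shCon. It fell by 0.58 log2 units (edgeR adjusted p = 0.0151, SE 0.164), a call lost without shSOX4 2 or shSOX4 3. TRAF4, the most abundant by length, had 70.3 FPKM in shSOX4 and 71.8 FPKM in shCon, and its log2 fold change of -0.06 had an adjusted p of 0.8 (edgeR). TRAF2, TRAF3, TRAF5, TRAF6 and BCL10 did not pass.

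CASP1 (ENSG00000137752), the inflammatory caspase that matures interleukin-1 beta, had the largest fold change of the 66 genes. It had 5.40, 5.35 and 5.89 CPM in shSOX4, against 0.350, 0.161 and 0.204 CPM in shCon. These levels rest on 184, 173 and 198 counts in shSOX4 and 16, 6 and 7 counts in shCon. The shSOX4 libraries were nearly level with each other, and the controls were close to undetected. The log2 fold change was 4.49 (95% interval 3.70 to 5.28, SE 0.369, edgeR adjusted p = 1.02e-06) and stayed between 4.28 and 4.90 with any one library left out. Like TNFSF10, CASP1 was under 1 CPM in every shCon library and stayed in the table through its shSOX4 level. It shares sequence with CARD16, which is measured beside it.

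CASP4 (ENSG00000196954), which senses bacterial lipopolysaccharide and cleaves gasdermin D, moved the same way by less. It had 11.1, 16.8 and 16.8 CPM in shSOX4, against 8.43, 4.33 and 4.52 CPM in shCon. The groups did not overlap, with shSOX4 1 the lowest of its group and shCon 1 the highest of the controls. CASP4 rose by 1.37 log2 units (95% interval 0.77 to 1.96, SE 0.278, edgeR adjusted p = 0.00243). CASP14, a caspase of skin differentiation, scattered between 0.417 and 2.99 CPM in shSOX4 and between 1.2 and 2.30 CPM in shCon and did not pass.

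CASP1 is known as abundant in leukocytes, so markers of other cells are given beside it. Of 9 leukocyte markers, 2 (CD14 and CD68) had a row, with summed levels of 46.3 to 56.5 CPM in shSOX4 and 97.4 to 116 CPM in shCon, and the pan-leukocyte gene PTPRC had none. The lower sum is that of CD68, with 47.0 CPM in shSOX4 and 106 CPM in shCon (adjusted p = 0.000171, edgeR), while CD14 had 2.87 CPM in shSOX4 and 2.18 CPM in shCon (adjusted p = 0.449, edgeR). Of 5 endothelial markers, CDH5 had a row, with 4.70 to 6.62 CPM in shSOX4 and 0.525 to 0.942 CPM in shCon. Of 7 fibroblast markers, PDGFRB, LUM and COL1A1 had rows, with summed levels of 9.55 to 16.0 CPM in shSOX4 and 1.69 to 2.48 CPM in shCon. The part of these differences in the changes of CASP1, TNFSF10 and the other genes was not tested.

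**Figure D3:**
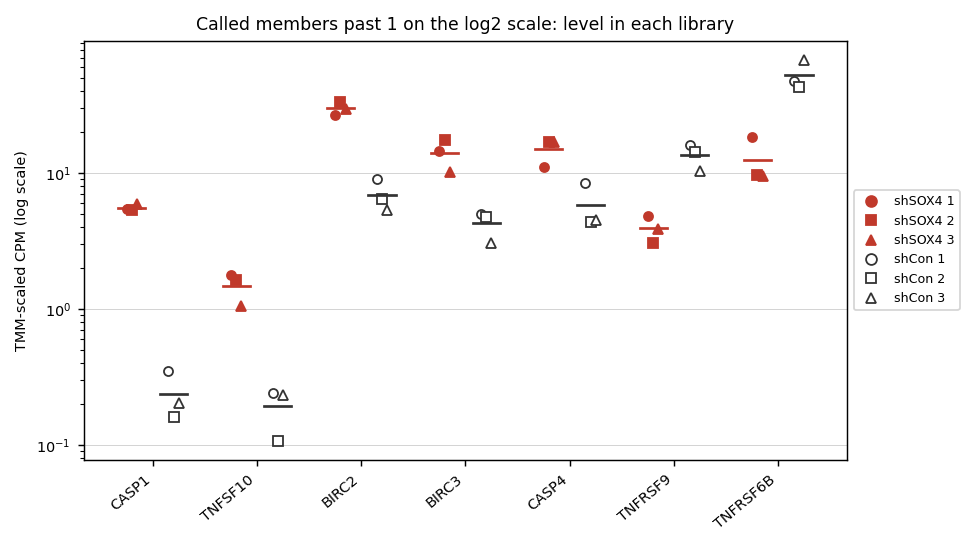
TMM-scaled CPM (log scale) in each of the 6 libraries for the 7 genes that passed the test with a log2 fold change of 1 or more in size, with shSOX4 as filled red symbols to the left, shCon as open black symbols to the right and bars for the group means. CASP1, TNFSF10, BIRC2, BIRC3 and CASP4 lie higher in every shSOX4 library, and TNFRSF9 and TNFRSF6B lie lower.

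Few caspases of the apoptotic cascade passed the test. Of the 4 initiators, 0 passed the test. CASP9, activated on the apoptosome, was the most abundant by length and had 36.1, 29.6 and 27.2 CPM in shSOX4 and 37.4, 35.5 and 38.4 CPM in shCon. Its log2 fold change was -0.26 (95% interval -0.64 to 0.12, adjusted p = 0.278, edgeR), with shSOX4 1 inside the range of the controls. CASP8, activated at death receptors, had a log2 fold change of 0.20 (95% interval -0.27 to 0.67, adjusted p = 0.503, edgeR). CFLAR stood at 3.32, 1.95 and 2.20 times CASP8 by FPKM in shSOX4, against 4.66, 3.99 and 3.70 times in shCon, and the groups did not overlap. CASP2 and CASP10 had log2 fold changes of 0.13 and 0.18 and did not pass.

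Of the 3 executioners, which cleave the substrates that dismantle the cell, 1 rose. CASP6 had 10.6, 11.5 and 14.0 CPM in shSOX4, against 7.95, 8.76 and 7.11 CPM in shCon, without overlap. It rose by 0.60 log2 units (edgeR adjusted p = 0.0396, SE 0.209), a call that held without shSOX4 1 and was lost without any one of the other 5 libraries (adjusted p up to 0.152).

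In the BCL2 family the change with the highest level was that of BCL2L1, which encodes the pro-survival protein BCL-XL. It had 409, 355 and 384 CPM in shSOX4, against 535, 587 and 699 CPM in shCon. The groups did not overlap, and shCon 3 was the highest library. BCL2L1 fell by 0.67 log2 units (95% interval -1.0 to -0.33, SE 0.156, edgeR adjusted p = 0.00574), to 63.0% of the shCon level, and the call held with any one library left out. By length it had 151 ± 6.8 FPKM in shSOX4 and 240 ± 15.2 FPKM in shCon (SD, n = 3 each).

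BCL2L1 made up 80.2%, 74.6% and 72.2% of the summed FPKM of the measured pro-survival genes in shSOX4, against 78.7%, 80.3% and 86.4% in shCon. The shares overlapped through shSOX4 1. MCL1, a short-lived pro-survival protein, had 118, 161 and 183 CPM in shSOX4 and 194, 174 and 116 CPM in shCon, a full overlap, with a log2 fold change of -0.06 (95% interval -0.51 to 0.38, adjusted p = 0.836, edgeR). BCL2L2, which encodes BCL-W, was lower in every shSOX4 library, with 19.9, 17.8 and 20.2 CPM against 23.6, 27.6 and 26.6 CPM in shCon, but its log2 fold change of -0.43 did not pass (adjusted p = 0.081, edgeR). BCL2A1 did not pass.

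Of the 3 pore-forming effectors, 0 passed. BAX had 53.6, 46.6 and 48.8 CPM in shSOX4 and 49.6, 54.3 and 66.9 CPM in shCon, with a log2 fold change of -0.20 (95% interval -0.58 to 0.18, adjusted p = 0.412, edgeR). BAK1 had 119, 89.3 and 102 CPM in shSOX4 and 72.2, 78.9 and 103 CPM in shCon, with a log2 fold change of 0.29 (95% interval -0.11 to 0.68, adjusted p = 0.244, edgeR). Both genes overlapped between the groups. BCL2L1 stood at 3.13, 3.61 and 3.39 times BAK1 by FPKM in shSOX4, against 6.91, 6.76 and 6.12 times in shCon, without overlap. BOK did not pass.

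Of the 7 BH3-only genes, 0 rose and 1 fell, with a median log2 fold change of -0.66 set by genes that mostly did not pass. PMAIP1, which encodes the BH3-only protein NOXA, had 22.1, 22.9 and 25.5 CPM in shSOX4, against 41.6, 44.3 and 29.2 CPM in shCon. It fell by 0.71 log2 units (95% interval -1.13 to -0.29, SE 0.197, edgeR adjusted p = 0.0143). The call was lost without shSOX4 2 or shCon 2, with an adjusted p of up to 0.075. BAD, which binds BCL-XL, was the most abundant by length, with 170 FPKM in shSOX4 and 204 FPKM in shCon, and its log2 fold change of -0.28 did not pass (adjusted p = 0.304, edgeR). BBC3, which encodes PUMA, and BIK had log2 fold changes of -0.66 and -0.70 with adjusted p of 0.0779 and 0.0741 (edgeR). BID, BMF and BCL2L11 did not pass.

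Both remaining BCL2-named genes fell. BCL2L12, an atypical member of the family, had 79.3, 61.7 and 67.6 CPM in shSOX4, against 105, 94.3 and 135 CPM in shCon, without overlap. It fell by 0.68 log2 units (edgeR adjusted p = 0.0117, SE 0.181), overlaps IRF3 and lost the call without shSOX4 2 (adjusted p = 0.0762). BCL2L13, a mitophagy receptor, had 118, 138 and 144 CPM in shSOX4 and 204, 208 and 159 CPM in shCon. It fell by 0.51 log2 units (edgeR adjusted p = 0.0299, SE 0.166), a call that held without shCon 3 and was lost without any one of the other 5 libraries, with an adjusted p of up to 0.12.

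**Figure D4:**
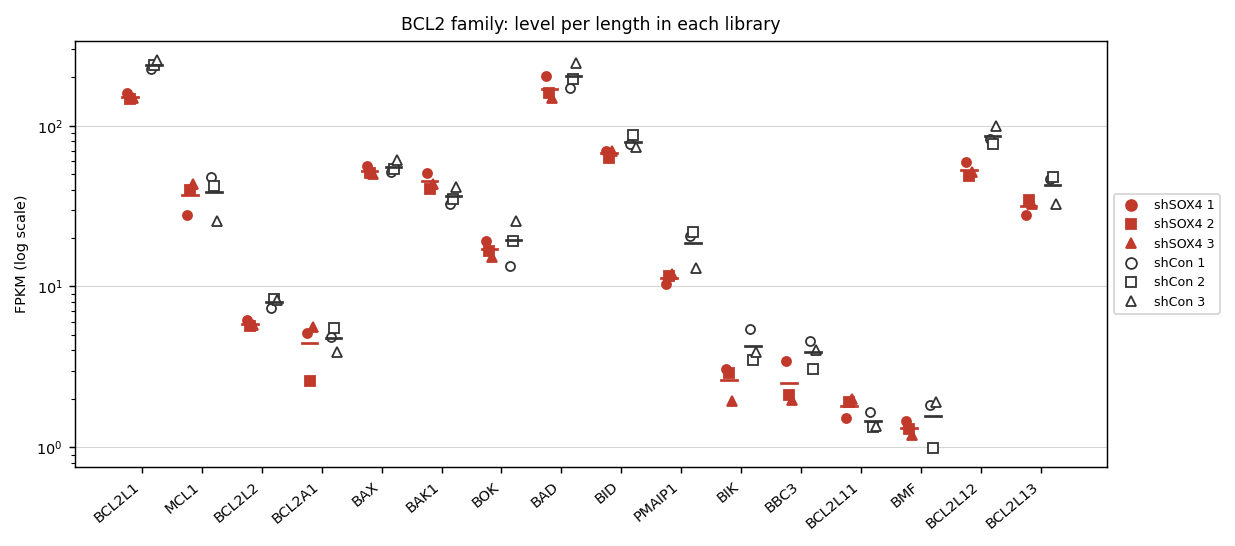
FPKM (log scale) of the BCL2-family genes in each of the 6 libraries, with shSOX4 as filled red symbols to the left, shCon as open black symbols to the right and bars for the group means. BCL2L1 and BAD stand highest, and the BCL2L1 symbols of shSOX4 lie below all those of shCon.

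The IAP genes BIRC2 and BIRC3, which encode the ubiquitin ligases cIAP1 and cIAP2 of TNF receptor complexes, both rose. BIRC2 (ENSG00000110330) had 26.8, 33.1 and 29.2 CPM in shSOX4, against 9.0, 6.40 and 5.36 CPM in shCon. BIRC3 (ENSG00000023445) had 14.5, 17.3 and 10.2 CPM in shSOX4, against 4.99, 4.73 and 3.06 CPM in shCon. For both genes every shSOX4 library lay above every shCon library. BIRC2 rose by 2.1 log2 units (95% interval 1.62 to 2.58, SE 0.225, edgeR adjusted p = 1.23e-05). BIRC3 rose by 1.71 log2 units (95% interval 1.16 to 2.27, SE 0.26, edgeR adjusted p = 0.0003). The 2 proteins are close relatives, and reads shared between the genes may have been split.

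BIRC6, a giant IAP protein that also conjugates ubiquitin, had 13.2, 13.9 and 10.5 CPM in shSOX4, against 7.91, 7.31 and 4.72 CPM in shCon. It rose by 0.91 log2 units (edgeR adjusted p = 0.0101, SE 0.237) with no overlap, and the call held with any one library left out. XIAP, an IAP that binds caspases directly, had 4.99, 7.06 and 7.08 CPM in shSOX4 and 6.88, 5.62 and 5.60 CPM in shCon, with a log2 fold change of 0.08 (95% interval -0.42 to 0.58, adjusted p = 0.821, edgeR). By FPKM, BIRC2 and BIRC3 together stood at 17.5, 14.8 and 12.0 times XIAP in shSOX4, against 3.91, 4.13 and 2.90 times in shCon. The ratio was higher in every shSOX4 library.

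DIABLO, the mitochondrial IAP antagonist also called SMAC, was the most abundant gene of this group by length, with 75.1 FPKM in shSOX4 and 86.9 FPKM in shCon. Its log2 fold change was -0.24 (adjusted p = 0.232, edgeR), although the groups did not overlap. APAF1, the scaffold of the apoptosome, had a log2 fold change of 0.49 (adjusted p = 0.365, edgeR).

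The promoter windows of BIRC3 and BIRC2 are shown because the genes are close relatives that rose together and lie side by side, both on the plus strand.
BIRC3 (chr11:102317234-102317483): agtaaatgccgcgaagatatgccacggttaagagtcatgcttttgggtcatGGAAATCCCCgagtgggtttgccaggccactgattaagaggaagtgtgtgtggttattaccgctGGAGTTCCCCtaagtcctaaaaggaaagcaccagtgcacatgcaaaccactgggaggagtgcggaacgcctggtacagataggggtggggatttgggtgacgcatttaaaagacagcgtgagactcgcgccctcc
BIRC2 (chr11:102346964-102347213): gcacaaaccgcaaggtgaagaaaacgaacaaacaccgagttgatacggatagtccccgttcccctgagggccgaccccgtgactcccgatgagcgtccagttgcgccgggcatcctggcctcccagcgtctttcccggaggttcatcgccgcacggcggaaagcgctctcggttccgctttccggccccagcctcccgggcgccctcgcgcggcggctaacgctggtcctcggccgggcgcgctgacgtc
Capitals in BIRC3 are 2 NF-kB matches. None of the motifs searched matched in the BIRC2 window.

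BIRC3, BIRC2, CASP4 and CASP1 lie near each other on chromosome 11, so the measured genes around them were set beside them in RefSeq order. From BIRC3 to CASP1 there were 6 measured genes, of which these 4 rose. TMEM123 and DCUN1D5, which lie between BIRC2 and CASP4, had log2 fold changes of -0.29 (adjusted p = 0.207, edgeR) and -0.09 (adjusted p = 0.74, edgeR). CARD16, the measured gene after CASP1 and a copy of its recruitment domain, had 5.10 CPM in shSOX4 and 0.395 CPM in shCon (SD 0.077). It rose by 3.68 log2 units (adjusted p = 2.29e-06, edgeR). Like CASP1, CARD16 stayed in the table through its shSOX4 level and could not have been listed had it been that low in both groups. YAP1, the measured gene before BIRC3, had a log2 fold change of 0.27 (adjusted p = 0.293, edgeR). Of the 10 measured genes before BIRC3, 3 rose and 1 fell, and of the 10 after CASP1, 2 rose and 0 fell. Of the 22 genes of this stretch outside the 4, 5 rose (22.7%), CARD16 among them, against 123 of 681 (18.1%) on the rest of chromosome 11. How far the position bears on the changes of these genes was not tested.

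**Figure D5:**
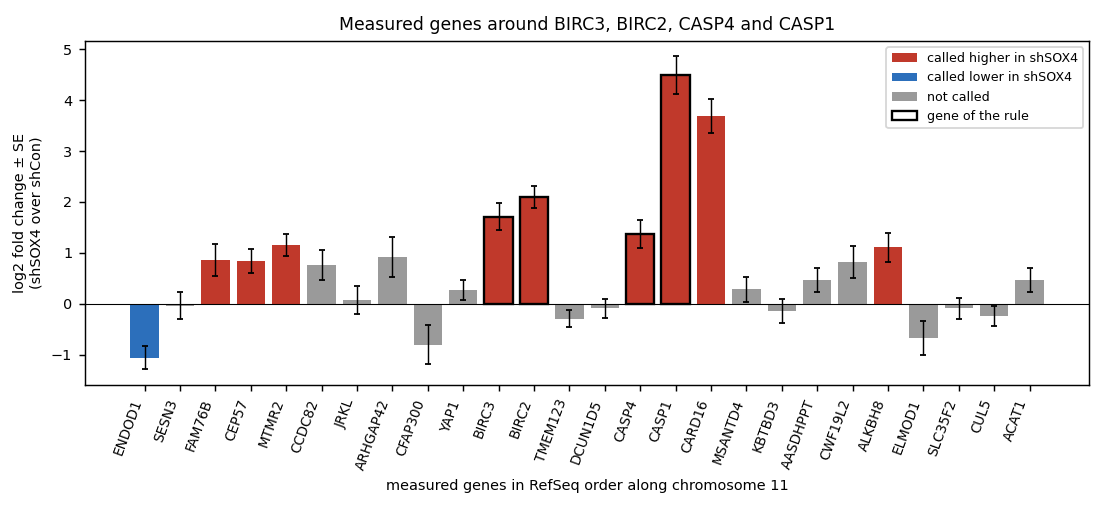
Log2 fold change of shSOX4 over shCon (bars, with the SE of the fit) for 26 measured genes of chromosome 11 in RefSeq order, from the 10 before BIRC3 to the 10 after CASP1. BIRC3, BIRC2, CASP4 and CASP1, outlined, are higher in shSOX4, as is CARD16, and TMEM123 and DCUN1D5 between them are near 0.

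In other places, too, close neighbours lay on either side of the threshold of the test. On chromosome 2, CFLAR fell while CASP10 and CASP8 beside it did not pass. On chromosome 8, TNFRSF10B and TNFRSF10C fell while TNFRSF10A and TNFRSF10D did not pass. There the log2 fold changes of TNFRSF10B (-0.41) and TNFRSF10A (-0.40) were nearly equal, while those of TNFRSF10C (-0.92) and TNFRSF10D (0.17) lay apart. A difference between one gene that passed and one that did not was not itself tested.

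Genes of the same pathways outside the family names were listed by group, and 81 of them were measured. Of these 81, 12 rose (14.8%, against 17.0% of all features) and 17 fell (21.0%, against 15.8%), with a median log2 fold change of -0.13. These shares of all features are the background for the counts by group that follow. Among ligands and receptors without a family name, 0 of 6 rose and 3 fell. LTB, a membrane lymphotoxin subunit, had 1.56 CPM in shSOX4 and 7.63 CPM in shCon (log2 fold change -2.29, adjusted p = 0.000142, edgeR), and CD40, a TNF receptor of antigen-presenting cells, had 14.8 CPM in shSOX4 and 30.9 CPM in shCon (-1.07, adjusted p = 0.000719, edgeR).

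Of the 22 genes for ubiquitin and kinase steps of TNF receptor signalling, 4 rose and 6 fell. TNFAIP3, which encodes the NF-kB inhibitor A20, had 9.29 CPM in shSOX4 and 23.4 CPM in shCon (log2 fold change -1.33, adjusted p = 0.00039, edgeR). RBCK1, a subunit of the linear ubiquitin ligase, had 148 CPM in shSOX4 and 287 CPM in shCon (-0.96, adjusted p = 0.00185, edgeR). Among those that rose, TANK had 8.13 CPM in shSOX4 and 3.34 CPM in shCon (1.28, adjusted p = 0.00196, edgeR), and its kinase partner TBK1 had 10.5 CPM in shSOX4 and 5.03 CPM in shCon (1.07, adjusted p = 0.00253, edgeR). The group thus held changes in both directions.

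Changes were few among the mitochondrial death factors, the caspase substrates and nucleases, and the caspase regulators. The p53-linked death genes, another group of the list, are not reported here. Of 13 mitochondrial death factors, 1 rose, VDAC3 (log2 fold change 0.78, adjusted p = 0.0114, edgeR), and 1 fell, SEPTIN4 (-1.26, adjusted p = 0.00623, edgeR). The SEPTIN4 call held with any one library left out. Of 8 caspase substrates and nucleases, ROCK1 rose (0.67, adjusted p = 0.0394, edgeR) and PARP1 fell (-0.50, adjusted p = 0.0222, edgeR). Both calls were lost without shSOX4 1, shSOX4 2, shCon 1 or shCon 2, with adjusted p of up to 0.116 for ROCK1 and 0.108 for PARP1. Of 18 caspase regulators, 2 rose and 2 fell, among them BAG1, an HSP70 co-chaperone (0.71, adjusted p = 0.00449, edgeR), and CRADD, an adaptor of caspase-2 (-0.71, adjusted p = 0.0171, edgeR). The VDAC3 call was lost without shSOX4 3 (adjusted p = 0.0642), and the CRADD call without shSOX4 2 or shCon 2 (adjusted p up to 0.119).

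Of 6 genes of necroptosis and pyroptosis, 0 rose and 2 fell. GSDMD, the pore-forming protein that CASP1 and CASP4 cleave, had a log2 fold change of -0.82 (adjusted p = 0.00779, edgeR), opposite in sign to both caspases. GSDMB had one of -1.01 (adjusted p = 0.0278, edgeR), a call lost without shSOX4 3 or shCon 1 (adjusted p up to 0.107).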

How the data were processed

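One deposited table held the 6 DU145 RNA-seq libraries, and the 4 ATAC-seq libraries of the series were not analysed here. Its columns NC 1 to 3 and SH 1 to 3 were taken for shCon and shSOX4 with the same numbers as in the labels. Per the file headers, the deposited values include raw counts, which are whole numbers. Per the file headers, the authors also gave FPKM, a level per gene length and library size. An adjusted p-value and a log2 fold change of the authors' own comparison stand beside them, per the file headers. Per the submitters' processing notes, HISAT2, STAR, Bowtie2, MACS2 2.1.1, deepTools 2.07 and the build hg19 were used, without roles. The labels' protocols describe 2 kits for poly-A RNA and do not say which served which library. The sources used here do not give the counting program, strand setting or annotation, so reads of overlapping or antisense genes cannot be told apart. Of the 66 genes, 29 overlap another protein-coding or long non-coding gene in RefSeq, 15 of them among the 23 that passed the test, such as CASP6 (MCUB), TRAF1 (PHF19), TRAF7 (CASKIN1), CFLAR (CFLAR-AS1) and BCL2L1 (BCL2L1-AS1).

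All 13527 features, among them 1116 loci called newGene, reached 1 CPM in at least 3 libraries. Counts were fitted in R 4.3.3 with edgeR 4.0.16, by TMM scaling, filterByExpr (which removed no feature) and a two-sided quasi-likelihood F test with group as the single term. Benjamini-Hochberg adjustment ran over all features, and an adjusted p under 0.05 was a call. The steps were tested on simulated counts. The ratio of count to FPKM differed between libraries by more than 1.5-fold for BMF and TRAF3. No label states that the libraries of a group were separate cultures, and p-values may therefore reflect technical spread. Libraries of the same group differed by a chi-square of 28.8 to 139 per degree of freedom, and none were duplicates.

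The genes, roles, pathway lists and tests were chosen with earlier results of these data known. Values per library were due for called genes with a log2 change of at least 1 in size, and a fold change and adjusted p for the other called genes. Further named were the most abundant gene by FPKM in each role, a short list of central regulators, and up to 2 called genes with the smallest adjusted p in each group of other pathway genes. Other genes named as not passing, TANK and TBK1, the neighbours on chromosomes, and the FPKM ratios were added after their values were seen. Gene order came from RefSeq (GRCh38.p14). As alternatives, scaling was by RLE or by total count, the filter was dropped or made stricter, and the comparison was run with DESeq2 1.42.0, limma-voom, limma 3.58.1 on log2(FPKM + 1) for genes averaging 1 FPKM or more, a test against a 1.5-fold change, the replicate number as a block, or with each library left out. Leaving out shSOX4 1 together with shCon 3, and leaving out newGene loci, were chosen after seeing the data. Values of a few genes are not reported here.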

Additional observations from a re-analysis of the deposited data

How the results depend on the processing

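Of the 23 calls, 22 were kept with RLE scaling, 21 with total-count scaling, 23 with DESeq2, 22 with limma-voom and 23 without newGene loci, and none changed sign in any setting run. Limma on FPKM, which tested 56 of the 66 genes, kept 17 and called 4 higher. The test against a 1.5-fold change kept 7, with 5 higher and 2 lower, and called 1 higher and 4 lower of the other pathway genes and 1195 features of the table. Leaving out one library gave 6 to 8 genes higher and 7 to 16 lower, the fewest lower without shSOX4 2. For the other pathway genes it gave 5 to 13 higher and 11 to 17 lower, and over all features 2509 to 4966 calls. SOX4 kept its sign, at -1.02 to -0.71 with one library left out, and against a 1.5-fold change its -0.89 had an adjusted p of 0.208. Without shSOX4 1 and shCon 3 together, 9 genes were higher and 20 lower. The 6 added were BCL2L2, BIK, BBC3, TNFSF9, RIPK2 and TRAF3.

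The replicate numbers did not pair the libraries: deviations of same-numbered libraries correlated at -0.386, 0.146 and -0.358. Between libraries of different numbers the correlations ran from -0.379 to 0.565, the highest for shSOX4 1 with shCon 3. With the replicate number as a block, 6 genes were higher and 13 lower.

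Some genes that did not pass changed sign with one library left out. Log2 fold changes ranged from -0.25 to 0.10 for MCL1, from -3.24e-06 to 0.24 for XIAP, from -0.23 to 0.030 for TNFRSF1A, from -0.0060 to 0.30 for TNFRSF10D, from -0.26 to 0.065 for TNFRSF12A, from -0.24 to 0.0095 for FADD and from -0.17 to 0.087 for TRAF4, which was 0.012 without shSOX4 1 and shCon 3 together. The cause was not tested. Depth limits CASP1 and TNFSF10 in shCon, where 4 to 16 counts a library stand behind each level.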

Other observations

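In the authors' deposited table, 8 of the 66 genes were higher and 17 lower at a false discovery rate under 0.05, and all 23 genes called with edgeR here were among them with the same sign. The 2 further genes in the authors' deposited table were RIPK2 (log2 fold change -0.62, false discovery rate 0.0285) and TRAF3 (-0.41, 0.0306). With DESeq2 here, the adjusted p was likewise 0.0285 for RIPK2 and 0.0306 for TRAF3. The authors' comparison rests on the same 6 libraries, so the shared calls are not a separate check.

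The measured genes that flank some of these loci moved more than the locus itself. Of the 20 measured genes nearest to FAS in RefSeq order, 11 rose and 0 fell, with a median log2 fold change of 0.74, while FAS at 0.37 did not pass the test. Of the 20 nearest to BCL10, 10 rose and 2 fell, while BCL10 at -0.20 did not pass. Of the 20 nearest to TNFSF9, 1 rose and 11 fell, while TNFSF9 at 0.35 did not pass. Over all genes with a position, 17.6% rose and 15.4% fell. These 3 loci were picked after their values were seen, from 4 of 66 genes with at least 10 flanking genes that rose and 2 with at least 10 that fell.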
